A study of Bos taurus with 30 samples.

Results

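The histone genes of the bovine genome were followed in day 15 elongated embryos. They were taken as every gene of the count table whose cattle symbol names a linker histone (H1), a core histone (H2A, H2B, H3 or H4) or a histone variant, and which had at least 10 counts in 3 or more libraries. Of 87 such symbols, 81 were in the count table and 52 of its 35092 genes met the rule. These were 7 linker, 11 H2A, 12 H2B, 4 H3 and 8 H4 genes, and 10 replication-independent variants. H2BC26 and H3C13 lay just outside the rule with 10 counts in 2 libraries each, and H2BC18 lay just inside it with 10 counts in 4 libraries.

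Holstein conceptuses were produced in vitro (IVP) from slaughterhouse oocytes or in vivo (IVV) by superovulation and artificial insemination (AI), and each was divided into the embryonic disc (ED) and the surrounding extraembryonic membranes (EEM). Both procedures used semen of a single bull, IVP blastocysts went to recipients at day 7 of culture, and all conceptuses were flushed from the uterus at day 15 without further treatment. There were 7 IVP and 9 IVV libraries of the ED and 6 IVP and 8 IVV libraries of the EEM, from 8 IVP and 9 IVV embryos, of which 5 IVP and 8 IVV embryos gave both tissues. Since 2 recipients carried all IVP embryos and 2 superovulated donors all IVV embryos, procedure, oocyte source and cow cannot be told apart. The paper also reports that IVP embryos were shorter than IVV embryos, and raises progesterone of the superovulated donors as a possible reason. Embryo length therefore cannot be told apart from the procedure either. Neither length nor embryo sex is in the labels used here.

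Histones package DNA into nucleosomes, and linker H1 binds the DNA between them. The clustered H2A, H2B, H3 and H4 genes, and most clustered H1 genes, are transcribed during S phase, and their mRNAs usually end in a conserved stem-loop in place of a poly(A) tail. Replication-independent variants are made throughout the cell cycle from polyadenylated mRNAs, and H2AX can be made in both forms. The libraries were poly(A)-selected and not stranded, so counts of the clustered genes reflect their polyadenylated or carried-over mRNA, and reads of overlapping genes on opposite strands could not be separated. In these bulk samples, fewer cells of a type and less RNA per cell cannot be told apart.

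Library totals ran from 48713218 to 63037371 counts. The summed level of the embryonic disc markers was 115 to 799 CPM (counts scaled to a common library size) in the ED and 48.2 to 161 CPM in the EEM, 1 of the 8 markers (TDGF1) was not found and another never exceeded 3 counts. Trophoblast markers summed to 5261 CPM or more in every ED library, so the ED pieces were not free of surrounding membrane. Their median was 20200 CPM (IVP) and 13240 CPM (IVV) in the ED and 22040 CPM (IVP) and 16610 CPM (IVV) in the EEM. The 13 mitochondrial protein genes had medians of 54810 CPM (IVP) and 30510 CPM (IVV) in the ED and 68930 CPM (IVP) and 33440 CPM (IVV) in the EEM. Medians of both sums were thus higher in IVP in either tissue, with ranges that overlapped. Hypoblast markers had medians of 1011 CPM (IVP) and 1023 CPM (IVV) in the ED and 1410 CPM (IVP) and 996 CPM (IVV) in the EEM, with overlap. For these 3 sums, the part in the histone differences was not tested. Markers of maternal blood reached at most 1.08 CPM and those of the uterus at most 2.61 CPM. XIST, the RNA of the inactive X chromosome, exceeded 10 CPM in 0 of 13 IVP libraries, in 7 of 9 IVV ED libraries and in 6 of 8 IVV EEM libraries, so its level moved with the procedure. XIST is made from the inactive X chromosome of females, and the highest IVP library had 0.591 CPM. Apart from the 2 IVV embryos with as little XIST, the procedure and the sex of the embryos therefore cannot be told apart in the comparisons of IVP with IVV. Sex was read from XIST alone, and another reason for low XIST in IVP was not tested.

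The 52 histone genes took 0.132% to 0.264% of the counts of a library. Most of these counts came from the replication-independent variants, which held 76.9% to 96.1% of the histone counts with a median of 88.0%. Shares of counts are not levels per transcript, because gene lengths were not used. Many clustered genes had no signal at all, since 25 of the 81 symbols in the count table were at 0 in all 30 libraries. A count of 0 allows up to 3 counts in a library. Of these, 23 fell into 5 runs of neighbouring histone genes, the longest holding 6 genes from H1-2 to H4C2. Clustered histone genes have near-identical copies, so values of single copies are uncertain where reads could map to more than 1 of them.

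The first question was how the procedure was associated with each histone class in the ED. H2B genes were lower in IVP, with 8 of 10 tested genes passing the test, while 3 of 9 H2A genes and 1 of 3 H3 genes did so. None of 7 H4 genes and none of 5 linker genes passed in edgeR's quasi-likelihood test (unadjusted p under 0.05 for 1 and 2 genes, and 0 of either class by DESeq2). Of 9 replication-independent variants, MACROH2A2 was lower. In all, 13 of 43 tested histone genes were lower in IVP against a background of 4.95% of all 15733 genes tested. No histone gene was higher (background 1.4%), with 0 at an unadjusted p under 0.05 and 0 by DESeq2. The median log2 fold change (IVP over IVV) of the tested histone genes was -0.79, beside -0.00785 for all genes tested.

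In the EEM the pattern by class was similar in extent for H2B, with 8 of 10 tested genes lower in IVP. Both tested H3 genes, 4 of 9 H2A genes and 3 of 8 H4 genes were also lower. None of 5 linker genes and none of 9 replication-independent variants passed edgeR's quasi-likelihood test (unadjusted p under 0.05 for 0 and 1 genes, and 0 and 1 by DESeq2). The total was 17 of 43 tested histone genes lower in IVP, against a background of 1.52% of 14718 genes. None was higher (background 2.29%), with 1 at an unadjusted p under 0.05 and 1 by DESeq2, H3-5 in both cases. The median log2 fold change was -0.58, beside 0.00376 for all genes tested.

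Low counts bear on these totals. H2BC13 and H3C10 in the ED, and H2BC17, H3C10 and H4C16 in the EEM, did not reach the level of the filter on low counts (0.185 CPM in the ED and 0.182 CPM in the EEM) in any IVP library. They were therefore tested only because of the IVV libraries in which they were high, and are no support for a difference. Among the 40 histone genes that reached the level in at least 1 IVP library, 11 were lower in IVP in the ED, 7 of 9 H2B genes included, and 14 of 40 in the EEM, again with 7 of 9 H2B genes. In every IVP library it was reached by 18 genes in the ED, of which H2BC4, H2BC5, H2BC21 and MACROH2A2 were lower, and by 25 in the EEM, of which 7 were lower. The filter asked for the level in as many libraries as the IVP group of the tissue held. Only these genes would thus have passed it through the IVP libraries alone. The other called genes also needed IVV libraries, in which they were higher, to be tested, and their p-values carry this limit. Over all genes tested, 4.27% of those that reached the level in at least 1 IVP library were lower in the ED and 1.05% in the EEM, and 2.79% and 0.802% of those that reached it in every IVP library. Of all genes that reached it in no IVP library, 92.5% were lower in the ED and 93.3% in the EEM. With no filter, all 13 and all 17 genes were also called.

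**Figure D1:**
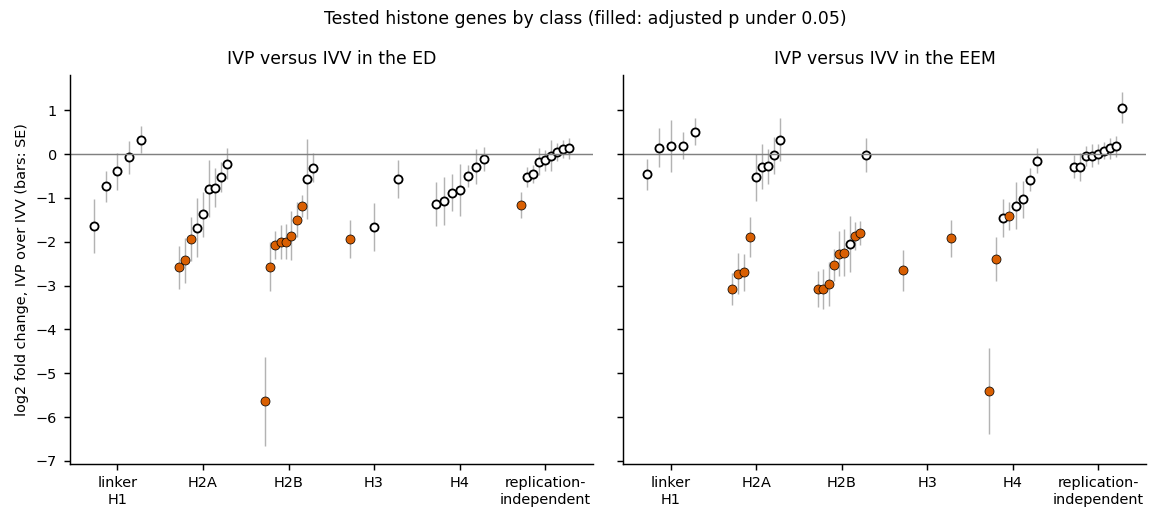
Each point is a tested histone gene, with its log2 fold change of IVP over IVV on the vertical axis, the standard error (SE) as a bar and the histone class on the horizontal axis, in the ED (left) and the EEM (right). Filled points had an adjusted p under 0.05. All 10 tested H2B genes lie below 0 in either tissue, and MACROH2A2 in the ED is the only replication-independent variant with a filled point.

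The genes H2BC4, H2BC5, H2BC8, H2BC11, H2BC12, H2BC14, H2BC21, H2AC6, H2AC8, H2AC25 and H3C10 were lower in IVP in both tissues. These 11 made up 84.6% of the list in the ED and 64.7% of that in the EEM. Over all genes tested, 91 were lower in both tissues, which is 11.7% of the 778 lower in the ED and 40.6% of the 224 lower in the EEM. Without the genes that reached the filter level in no IVP library, the 10 other than H3C10 made up 90.9% of 11 and 71.4% of 14. Most embryos gave a library to both comparisons, so the lists are not independent. In every fit with another normalization, filter, model, tool or covariate or with a library left out, apart from that of the libraries with at most 10 CPM of XIST, H2AC25, H2BC4, H2BC5 and H2BC12 were called in the ED, 4 of 13. In the EEM this held for 10 of 17 genes, namely those 4 with H2AC6, H2AC8, H2BC8, H2BC14, H2BC21 and H4C14. In the fit of low-XIST libraries, H2AC25, H2BC4 and H2BC12 of these were not called in the ED. In the EEM, H2AC6, H2BC5, H2BC14 and H4C14 of these were not called in that fit.

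The summed level of each class is given as a description without a test. The summed H2B level was 7.76 to 19.7 CPM in the ED of IVP embryos (median 13.8) and 25 to 53.8 CPM in that of IVV embryos (median 30.7). It was 8.03 to 14.5 CPM in the EEM of IVP embryos (median 12.2) and 20.8 to 98.8 CPM in that of IVV embryos (median 44.5). Every IVP library was below every IVV library in both tissues, and the ratio of the means was 2.59-fold in the ED and 4.25-fold in the EEM. Without H2BC21, the H2B gene with the most counts, the log2 ratio in the ED moved from -1.38 to -1.91.

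For H2A, the summed level was 0.605 to 8.74 CPM (IVP) and 8.33 to 13.4 CPM (IVV) in the ED, and 1.503 to 14.9 CPM (IVP) and 8.99 to 21.8 CPM (IVV) in the EEM. The H2A ranges overlapped slightly in the ED, where 6 of 7 IVP libraries were below every IVV library, and more widely in the EEM, where 4 of 6 were. The summed H4 level was 10.2 to 19.6 CPM (IVP) and 14.1 to 31.6 CPM (IVV) in the ED, which overlapped, and 10.1 to 16.5 CPM (IVP) and 17.7 to 38.0 CPM (IVV) in the EEM, which did not. H3 sums were small, at most 4.27 CPM in any library, and overlapped in both tissues.

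The summed replication-independent variants stood at 979 to 2454 CPM (IVP) and 1038 to 2063 CPM (IVV) in the ED, and at 1131 to 2624 CPM (IVP) and 1231 to 2127 CPM (IVV) in the EEM. These ranges overlapped almost fully, with ratios of the means of 1.01-fold in each tissue. Set against these variants within a library, counts of the H2A, H2B, H3 and H4 genes amounted to 1.12% to 3.03% (IVP) and 3.43% to 5.70% (IVV) in the ED, without overlap. In the EEM this ratio was 1.16% to 3.20% (IVP) and 2.82% to 7.50% (IVV), and overlapped.

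**Figure D2:**
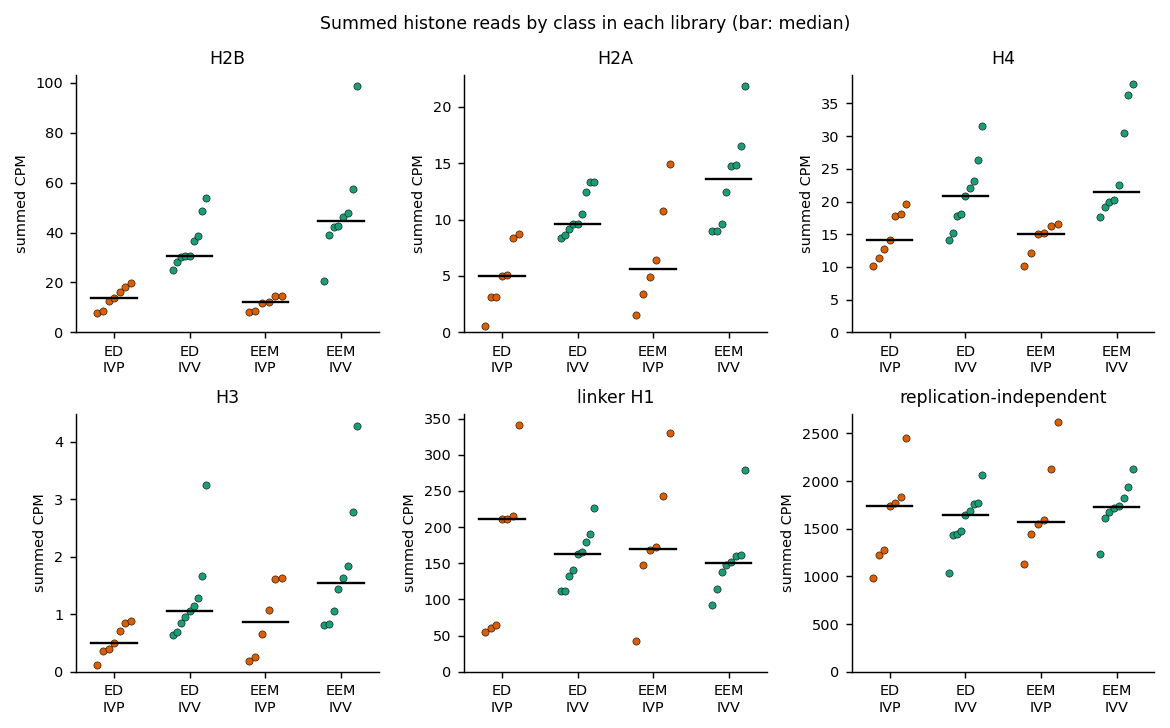
Each point is a library, with the summed CPM of a histone class on the vertical axis and the 4 groups on the horizontal axis; bars mark medians. H2B sums of IVP libraries (at most 19.7 CPM in the ED and 14.5 CPM in the EEM) lie below all IVV libraries, whereas sums of linker H1 and replication-independent genes overlap.

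XIST differed with the procedure, so the sums were also read in the 2 IVV embryos without it, a choice made after the data were seen. Their summed H2B level was 28.2 and 30.4 CPM in the ED, above the highest IVP library (19.7 CPM), and 42.2 and 48.0 CPM in the EEM, above the highest IVP library (14.5 CPM). H2A in the ED (13.3 and 9.60 CPM) and H4 in the EEM (22.5 and 19.1 CPM) were also above every IVP library. In the EEM, H2A (12.4 and 14.8 CPM) and H3 (0.823 and 1.44 CPM) lay within the IVP range. In the ED, H4 of VE3 (17.75 CPM) and H3 of VE5 (0.630 CPM) did so too, but H4 of VE5 (22.1 CPM) and H3 of VE3 (1.15 CPM) did not. With only these libraries and no surrogate variable, 2 histone genes were lower in IVP in the ED and 6 in the EEM in edgeR's quasi-likelihood test. With XIST as a covariate, the counts were 7 in the ED and 12 in the EEM. Of the ED calls, 6 were lost with this covariate (adjusted p 0.0562 to 0.295), and their log2 fold changes stayed negative. They moved from -1.95 to -1.54 for H2AC6, from -2.42 to -1.93 for H2AC8, from -1.50 to -1.21 for H2BC8, from -2.57 to -2.32 for H2BC11 and from -1.19 to -0.957 for H2BC21, and stood at -1.86 in both fits for H2BC14. In the EEM 5 calls were lost (adjusted p 0.0781 to 0.802), with log2 fold changes of -2.23 for H2AC7, -2.39 for H2BC11, -1.21 for H2BC17 and -2.32 for H3C5P, beside -1.89, -2.27, -2.25 and -2.65 without the covariate. The fifth was H4C16, which is at the floor of counts in IVP, so that its fitted fold is no measured size.

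Among the H2B genes, H2BC21 (gene 537985) had the most counts. Its level was 4.55 to 15.2 CPM (median 10.1) in the ED of IVP embryos and 15.3 to 28.9 CPM (median 22.3) in that of IVV embryos, and 5.05 to 10.8 CPM (median 8.21) and 12.5 to 54.7 CPM (median 26.8) in the EEM. The groups did not overlap in either tissue, although the highest IVP library of the ED was close to the lowest IVV library. The log2 fold change was -1.19 (SE 0.25, adjusted p = 0.00496) in the ED and -1.80 (SE 0.28, adjusted p = 0.000229) in the EEM.

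H2BC4 (gene 787269) had the smallest p of the H2B genes in the EEM. In the ED it stood at 0.462 to 1.72 CPM (median 1.15) in IVP and 1.58 to 10.5 CPM (median 3.78) in IVV. In the EEM it stood at 0.501 to 1.46 CPM (median 0.789) in IVP and 1.56 to 16.9 CPM (median 6.19) in IVV. The ED groups overlapped at their edges and the EEM groups did not. The log2 fold change was -2.01 (SE 0.39, adjusted p = 0.00288) in the ED and -3.08 (SE 0.41, adjusted p = 5.24e-05) in the EEM.

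H2BC5 (gene 519935) had the smallest p of all histone genes in the ED. Levels there were 0.353 to 0.792 CPM (median 0.537) in IVP and 1.18 to 5.04 CPM (median 1.81) in IVV, and in the EEM 0.530 to 1.13 CPM (median 0.721) and 1.74 to 6.87 CPM (median 2.53). No IVP library reached an IVV library of the same tissue. The log2 fold change was -2.08 (SE 0.31, adjusted p = 0.000191) in the ED and -1.88 (SE 0.32, adjusted p = 0.000728) in the EEM. H2BC8 and H2BC12 were also separated without overlap in both tissues, with log2 fold changes of -1.497 and -1.998 in the ED and -2.95 and -2.53 in the EEM; these 2 genes were singled out after their values were seen.

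H2BC14 (gene 616868) was lower in IVP in both tissues. In the EEM it was at 0.0725 to 0.306 CPM (median 0.165) in IVP and 0.526 to 3.56 CPM (median 1.51) in IVV, without overlap. In the ED it was at 0.0905 to 0.369 CPM (median 0.167) in IVP and 0.140 to 2.62 CPM (median 0.67) in IVV, with overlap. Its log2 fold change was -3.08 in the EEM (SE 0.45, adjusted p = 0.000125) and -1.86 in the ED (SE 0.56, adjusted p = 0.0481). The gene reached the filter level in 2 of 6 IVP libraries of the EEM and 2 of 7 of the ED, so it passed only together with IVV libraries. The ED call was lost (adjusted p 0.0521 to 0.129) on leaving out any of IVP10, IVP14, IVPF13, IVPF14, IVPF15, VE3, VE6, VE26, VE28 or VE29, each the name of an embryo. Whether the procedure acted differently in the tissues was tested as an interaction, which for H2BC14 was 0.94 (SE 0.48, adjusted p = 0.526).

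In the ED 5 of the 43 tested histone genes had every IVP library below every IVV library, and in the EEM 11 had. Over all genes tested this held for 0.718% in the ED and 0.374% in the EEM. Of these histone genes, 4 in the ED and 7 in the EEM were H2B genes. They include H3C10 in both tissues and H2BC17 in the EEM, which were tested only because of the IVV libraries. Among the 40 genes that reached the filter level in an IVP library, the counts were 4 in the ED, all H2B genes, and 9 in the EEM, of which 6 were H2B genes.

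**Figure D3:**
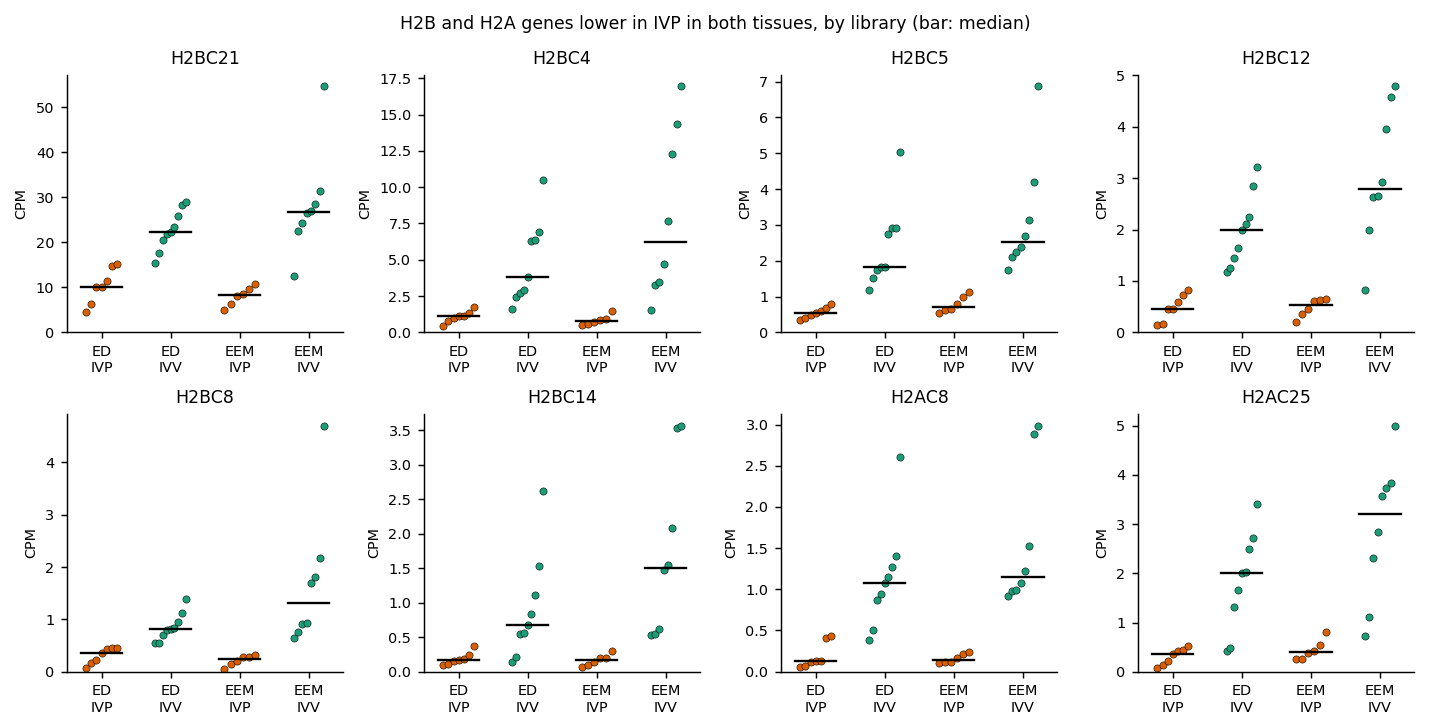
Each point is a library, with the CPM of a single gene on the vertical axis and the 4 groups on the horizontal axis; bars mark medians. The genes are 6 H2B and 2 H2A genes that were lower in IVP in both tissues, such as H2BC5, whose IVP libraries reach at most 0.792 CPM in the ED and 1.13 CPM in the EEM.

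H2A genes sit beside H2B genes in the clusters, often as divergent pairs. Among H2A genes with the most counts, H2AC25 (gene 538911) was at 0.0691 to 0.513 CPM (median 0.352) in the ED of IVP embryos and 0.415 to 3.42 CPM (median 2.00) in that of IVV embryos. EEM levels were 0.260 to 0.807 CPM (median 0.401) in IVP and 0.727 to 5.00 CPM (median 3.21) in IVV. IVP libraries lay at the low end with a small overlap in both tissues. The log2 fold change was -2.58 (SE 0.49, adjusted p = 0.00213) in the ED and -2.69 (SE 0.42, adjusted p = 0.000262) in the EEM.

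H2AC8 (gene 524808) had the smallest p of all histone genes in the EEM, where it was at 0.109 to 0.245 CPM (median 0.141) in IVP and 0.918 to 2.98 CPM (median 1.14) in IVV. The groups did not overlap, with a log2 fold change of -3.08 (SE 0.37, adjusted p = 1.20e-05). In the ED it was at 0.0518 to 0.433 CPM (median 0.130) in IVP and 0.384 to 2.60 CPM (median 1.08) in IVV, with overlap and a log2 fold change of -2.42 (SE 0.51, adjusted p = 0.00502). H2AC8 reached the filter level in 1 of 6 IVP libraries of the EEM and 2 of 7 of the ED. It therefore passed the filter only together with IVV libraries, in which it was higher.

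The other 2 H2A genes with most counts did not pass edgeR's quasi-likelihood test in either tissue. H2AC13 (gene 783767) had a log2 fold change of -1.37 (SE 0.52, adjusted p = 0.127) in the ED and -0.53 (SE 0.53, adjusted p = 0.839) in the EEM. For H2AC14 (gene 616790), a close neighbour of H2BC14, it was -0.79 (SE 0.65, adjusted p = 0.608) in the ED and 0.33 (SE 0.49, adjusted p = 0.944) in the EEM. H2AC13 passed in the ED by DESeq2 (log2 fold change -1.36, adjusted p = 0.0459) and on leaving out IVP11 (adjusted p = 0.0468) or VE19 (0.0206), and in the EEM on leaving out VE19 (0.0421).

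Neighbouring H2A and H2B genes could be set side by side in 8 pairs of adjacent genes in the RefSeq order; the pairs were set after values were seen. In the ED 7 pairs had a tested H2B gene, of which 6 H2B genes were lower. Of the H2A partners of these 6, H2AC8 was lower, 4 did not pass and H2AC11 was not tested. In the EEM 6 of 7 tested H2B genes of pairs were lower, and of their partners H2AC8 was lower, 3 did not pass, and H2AC11 and H2AC17 were not tested. Leaving aside H2BC13 in the ED and H2BC17 in the EEM, which were tested only because of the IVV libraries, 5 of 6 H2B genes of pairs were lower in either tissue. In the EEM H2AC7 was lower (log2 fold change -1.89, adjusted p = 0.0156) while H2BC7 had -2.06 (adjusted p = 0.0731). The H2AC7 call was lost with title letter C only (adjusted p = 0.209), with XIST as a covariate (0.107) and without IVP11, and with halved counts the gene did not pass the filter. In the ED H2AC7 had -1.67 (adjusted p = 0.153). H2AC6, which has no adjacent H2B gene in this order among the 52, was lower in both tissues. H2AC20, next to H2BC21, had log2 fold changes of -0.52 (SE 0.35, adjusted p = 0.490) in the ED and -0.03 (SE 0.43, adjusted p = 0.996) in the EEM. The ratio of H2B to H2A counts within a library overlapped between IVP and IVV in all 8 pairs and both tissues, so no pair separated the procedures by this ratio, which was not tested.

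H3 genes were at low counts. H3C10 (gene 616819) had 3 to 9 counts (median 6) in the ED of IVP embryos and 11 to 41 counts (median 25) in that of IVV embryos. Its EEM libraries had 3 to 8 counts (median 6) in IVP and 10 to 63 counts (median 20) in IVV. The groups did not overlap in either tissue. Its log2 fold change was -1.94 (SE 0.44) in the ED and -1.92 (SE 0.42) in the EEM. No p is given, since the gene passed the filter only through the IVV libraries, and with halved counts it did not pass in either tissue. The EEM call was also lost with libraries of title letter C only (log2 fold change -2.14).

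H3C5P (gene 104968768), annotated as a pseudogene, had the most counts of the H3 group. It had 0 to 14 counts (median 7) in IVP and 7 to 100 counts (median 31) in IVV in the ED, with overlap. In the EEM it had 3 to 15 counts (median 5.5) in IVP and 19 to 130 counts (median 43.5) in IVV, without overlap. It was lower in IVP in the EEM (log2 fold change -2.65, SE 0.47, adjusted p = 0.00101, but 0.0781 with XIST as a covariate), with -1.66 (SE 0.55, adjusted p = 0.0779) in the ED. It reached the filter level in 2 of 6 IVP libraries of the EEM and 3 of 7 of the ED, so it passed only together with IVV libraries. The ED value passed by DESeq2 (adjusted p = 0.0218), with no surrogate variable (0.0326) and on leaving out IVPF15 (adjusted p = 0.0285) or VE4 (0.0342). H3C12 (gene 616800) had 2 to 22 counts over all libraries and a log2 fold change of -0.57 (SE 0.43, adjusted p = 0.552) in the ED, and was not tested in the EEM.

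H4 genes encode the same core protein from many copies, and 1 of the 8 followed here, H4C9, is annotated as a pseudogene. H4C13 (gene 528329) held most of the H4 counts, at 4.87 to 15.0 CPM (IVP) and 8.96 to 19.3 CPM (IVV) in the ED and 3.69 to 14.02 CPM (IVP) and 10.3 to 23.8 CPM (IVV) in the EEM. Groups overlapped, with log2 fold changes of -0.50 (SE 0.25, adjusted p = 0.295) and -0.58 (SE 0.27, adjusted p = 0.316). H4C4 (gene 617875) had -0.12 (SE 0.27, adjusted p = 0.897) in the ED and -0.15 (SE 0.28, adjusted p = 0.970) in the EEM. H4C19 (gene 518961) was at 0.367 to 1.22 CPM (median 0.622) in IVP and 1.09 to 4.19 CPM (median 1.56) in IVV in the EEM, with a slight overlap, and was lower there (log2 fold change -1.41, SE 0.31, adjusted p = 0.00819), with -0.88 (SE 0.43, adjusted p = 0.274) in the ED. The EEM call was lost with title letter C only, at a fold change of about the same size (-1.40, adjusted p = 0.236), and with low-XIST libraries only (-1.21, adjusted p = 0.509). H4C14 was the other H4 gene of this kind that was lower in the EEM.

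H1-10 (gene 511901), the linker gene with the highest CPM summed over all libraries, is made outside S phase. It was at 31.1 to 233 CPM (IVP) and 58.3 to 167 CPM (IVV) in the ED and at 25.9 to 226 CPM (IVP) and 42.3 to 209 CPM (IVV) in the EEM. IVP libraries spread on both sides of the IVV range. The log2 fold change was -0.07 (SE 0.37, adjusted p = 0.957) in the ED and 0.19 (SE 0.31, adjusted p = 0.957) in the EEM.

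The summed linker level, given without a test, was split among the IVP discs. Embryos IVPF10, IVPF13 and IVPF14 had 64.7, 60.4 and 55.0 CPM, below every IVV disc, and the other 4 had 211.8 to 342 CPM. In the EEM, embryo IVPF13 was at the high end (331 CPM) and IVPF14 at the low end (42.6 CPM). H1-12 (gene 515957) had 20 to 103 counts over all libraries, with log2 fold changes of -0.74 (SE 0.35, adjusted p = 0.255) and -0.46 (SE 0.35, adjusted p = 0.703).

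Of the replication-independent genes, H3-3A and H3-3B encode the same H3.3 protein. H3-3B (gene 617051), with the most counts of all histone genes, was at 260 to 1312 CPM (IVP) and 423 to 780 CPM (IVV) in the ED and at 376 to 1375 CPM (IVP) and 535 to 863 CPM (IVV) in the EEM. IVV libraries lay within the IVP range in both tissues, and the log2 fold change was 0.12 (SE 0.21, adjusted p = 0.865) in the ED and 0.14 (SE 0.24, adjusted p = 0.967) in the EEM. H3-3A (gene 326601) was at 66.9 to 180 CPM (IVP) and 78.2 to 307 CPM (IVV) in the ED, with a log2 fold change of -0.51 (SE 0.22, adjusted p = 0.205), and 0.01 (SE 0.22, adjusted p = 1) in the EEM.

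H2AZ1 and H2AZ2 encode H2A.Z, a variant found at promoters. H2AZ1 (gene 287016) was at 222 to 669 CPM (IVP) and 249 to 644 CPM (IVV) in the ED and at 298 to 641 CPM (IVP) and 182 to 813 CPM (IVV) in the EEM. These ranges overlapped widely, and the log2 fold change was 0.13 (SE 0.24, adjusted p = 0.864) and -0.04 (SE 0.27, adjusted p = 0.994). For H2AZ2 (gene 613618) it was -0.14 (SE 0.24, adjusted p = 0.853) and 0.18 (SE 0.24, adjusted p = 0.917).

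H2AX (gene 531733), the variant phosphorylated at DNA breaks, had log2 fold changes of -0.18 (SE 0.31, adjusted p = 0.856) in the ED and -0.29 (SE 0.26, adjusted p = 0.795) in the EEM. Those of H2AJ (gene 618489) were -0.45 (SE 0.20, adjusted p = 0.220) and -0.04 (SE 0.23, adjusted p = 0.991). H3-5 (gene 512741) had -0.03 (SE 0.35, adjusted p = 0.979) in the ED and 1.06 (SE 0.35, adjusted p = 0.101) in the EEM, the highest log2 fold change of the histone genes tested there, and DESeq2 called it (adjusted p = 0.0440).

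The macroH2A proteins carry a large extra domain and are enriched on inactive chromatin, the inactive X chromosome included. MACROH2A2 (gene 537167) was at 3.30 to 8.77 CPM (median 4.69) in the ED of IVP embryos and 4.44 to 22.6 CPM (median 10.8) in that of IVV embryos. The groups overlapped, with a log2 fold change of -1.17 (SE 0.30, adjusted p = 0.0185). The call was lost without embryo IVP11 (adjusted p = 0.0532) or VE5 (0.0669), and it held with XIST as a covariate. In the EEM its log2 fold change was -0.29 (SE 0.32, adjusted p = 0.874). MACROH2A1 (gene 532990) was at 44.0 to 78.3 CPM (IVP) and 20.8 to 73.4 CPM (IVV) in the ED, and had log2 fold changes of 0.05 (SE 0.21, adjusted p = 0.955) and 0.08 (SE 0.20, adjusted p = 0.980).

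**Figure D4:**
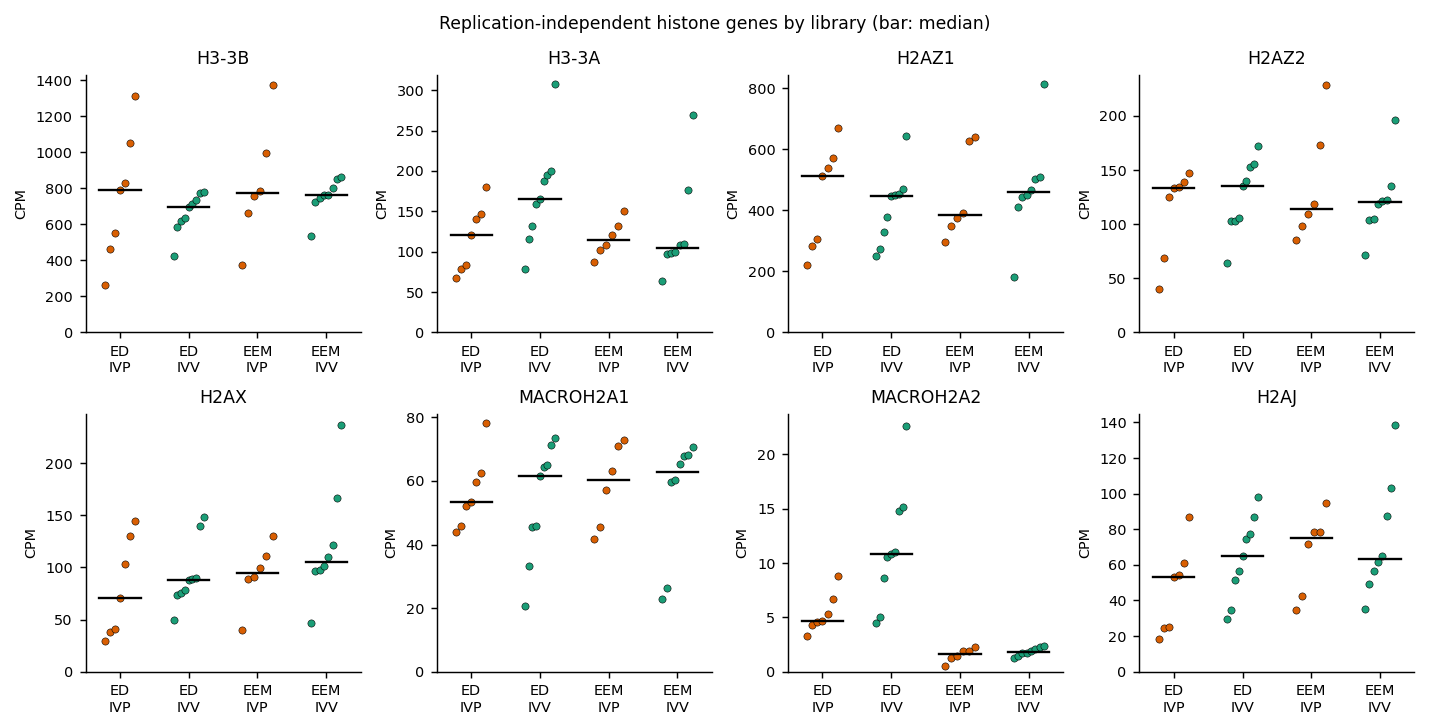
Each point is a library, with CPM on the vertical axis and the 4 groups on the horizontal axis, for 8 replication-independent genes; bars mark medians. MACROH2A2 lies at 3.30 CPM or more in every ED library and at 2.38 CPM or less in every EEM library, while the other genes overlap between IVP and IVV and between the tissues.

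Some histone genes were near 0 in part of the libraries. H2BC13 (gene 100295221) had at most 1 count in all 7 IVP discs, and 0 to 54 counts (median 23) in the IVV discs, of which 7 of 9 exceeded 3 counts. In the EEM it had at most 1 count in all 6 IVP libraries and 0 to 167 counts (median 5) in IVV libraries, of which 4 of 8 exceeded 3. Against a floor of 3 counts per library, its mean level was at least 7.75-fold lower in IVP in the ED and at least 14.7-fold lower in the EEM, where it did not pass the filter on low counts and was not tested. The EEM bound was at least 8.18-fold without VE19, whose level was 3.57 CPM, and at least 10.2-fold without VE28. No p is given for the ED, where the gene passed that filter only through the IVV libraries and no longer did so on leaving out any of VE3, VE4, VE6, VE19, VE24, VE26 or VE28.

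H4C16 (gene 530773) also lay near the floor. It had 0 to 1 counts in the EEM of IVP embryos and 0 to 41 counts (median 19) in that of IVV embryos, of which 6 of 8 exceeded 3. Its mean was at least 6.13-fold lower in IVP there. No p is given, since it passed the filter only through the IVV libraries of the EEM and lost its call on leaving out any of VE3, VE4, VE24, VE26, VE28 or VE29. It had 0 to 7 counts in all ED libraries and was not tested there.

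Other such genes were not tested between procedures because of low counts. H3C1 had more than 3 counts in 3 of 7 IVP discs and 3 of 6 IVP EEM libraries, and at most 1 count in all 17 IVV libraries. H1-7 had median counts of 12 (IVP) and 3 (IVV) in the ED and 15.5 (IVP) and 3 (IVV) in the EEM. H1-6 had medians of 0.5 (IVP) and 19.5 (IVV) in the EEM, and H3-3D (gene 539855) had medians of 0 (IVP) and 11 (IVV) in the ED but 3 (IVP) and 0 (IVV) in the EEM. Apart from H3-3D, these genes were chosen after their values were seen.

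**Figure D5:**
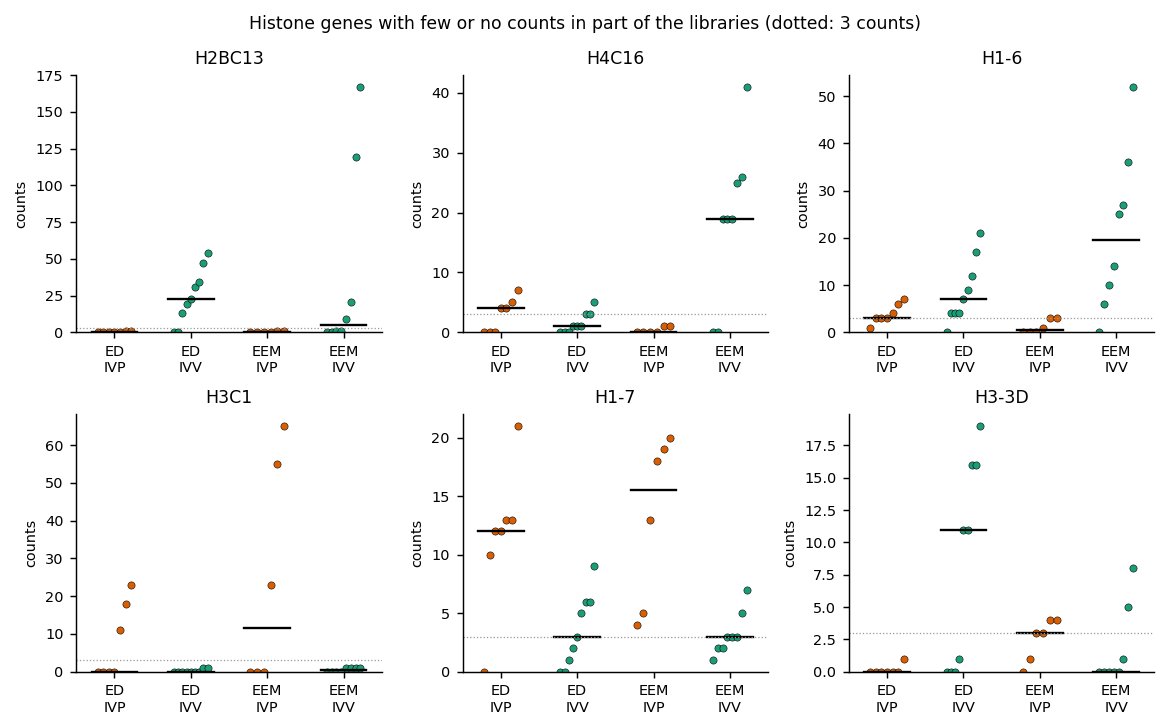
Each point is a library, with raw counts on the vertical axis and the 4 groups on the horizontal axis; bars mark medians and the dotted line 3 counts. H2BC13 stays at 1 count or less in all IVP libraries and H3C1 at 1 count or less in all IVV libraries.

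The second question was how the tissues of the same embryo differed. In the 8 IVV embryos, 2 of 49 tested histone genes were lower in the ED (background 6.55% of 16784 genes) and 2 were higher (background 15.6%). MACROH2A2 was at 4.44 to 22.6 CPM (median 10.8) in the ED and 1.23 to 2.38 CPM (median 1.82) in the EEM, without overlap, and its log2 fold change (ED over EEM) was 2.48 (SE 0.27, adjusted p = 9.95e-07). H3-3A was at 78.2 to 307 CPM (median 173) in the ED and 64.1 to 269 CPM (median 104) in the EEM, with wide overlap, and a log2 fold change of 0.46 (SE 0.14, adjusted p = 0.0231) within embryos. Its call was lost without VE3 (adjusted p = 0.0511), VE5 (0.0842), VE26 (0.0694) or VE29 (0.0735), and without the embryo as a block (0.388).

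The 2 lower genes were H2BC14 and H4C16. H2BC14 had a log2 fold change of -0.98 (SE 0.26, adjusted p = 0.00887), and without the embryo as a block -0.85 (adjusted p = 0.342). H4C16 had 0 to 3 counts in the ED and 0 to 41 in the EEM of these embryos, and passed the filter only through the latter, so no p is given.

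In the 5 IVP embryos, MACROH2A2 was higher in the ED, with 3.30 to 8.77 CPM (median 4.69) there and 0.491 to 2.28 CPM (median 1.88) in the EEM, without overlap. Its log2 fold change was 1.83 (SE 0.33, adjusted p = 0.00174). It was 1 of 49 tested histone genes to be higher (background 4.18%), and none was lower in edgeR's quasi-likelihood test (background 0.649%, 3 at an unadjusted p under 0.05, 0 by DESeq2). Over all genes tested, 5.51% in IVV and 2.63% in IVP had every ED library above every EEM library, as MACROH2A2 had.

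The interaction asks whether the tissue difference depended on the procedure. It passed for 1 of 49 histone genes, H4C16 (background 0.107% for this direction), for which no p is given. None passed in the other direction (background 0.918%, 0 at an unadjusted p under 0.05 and 0 by DESeq2). H4C16 passed the filter only through the IVV libraries of the EEM, rests on counts of 0 to 7 in 3 of the 4 groups, has a fitted difference that depends on the prior count, and lost its call on leaving out any of IVP10, IVP14, IVPF13, IVPF14, VE3, VE28 or VE29. For MACROH2A2 the interaction was -0.65 (SE 0.41, adjusted p = 0.673), so a difference between procedures in its tissue contrast was not shown.

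Genes that act on histones were counted from 4 lists of 12 to 26 tested genes, beside backgrounds of 4.95% lower and 1.4% higher in the ED and 1.52% and 2.29% in the EEM. At these sizes a count of 0 is close to the background and says nothing particular about the lists. Of genes for histone gene transcription, such as NPAT, 0 of 12 tested passed edgeR's quasi-likelihood test between IVP and IVV in either tissue (0 in the ED and 1 in the EEM at an unadjusted p under 0.05, 0 by DESeq2). Of those for processing of histone mRNA, such as SLBP, which binds the stem-loop, 0 of 13 passed in either tissue (1 and 1 unadjusted, 0 by DESeq2). Histone chaperones, which carry and deposit histones, gave 0 of 25 in either tissue (0 and 0 unadjusted, 0 by DESeq2). S phase genes gave 0 of 26 in either tissue (2 and 2 unadjusted, 0 by DESeq2), with a median log2 fold change of 0.04 in the ED and 0.01 in the EEM.

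Between the tissues of IVV embryos, where 6.55% of all genes tested were lower and 15.6% higher in the ED, the lists held few called genes. LSM11, a part of the complex that cuts histone pre-mRNA, was lower in the ED (log2 fold change -0.73, SE 0.19, adjusted p = 0.00766). It was 1 of 13 tested processing genes, a share near the background. HJURP, the chaperone of the centromeric H3, was the 1 of 25 chaperone genes lower in the ED (-0.59, SE 0.14, adjusted p = 0.00489). Of 26 S phase genes, CDC6 was lower (-0.45, SE 0.15, adjusted p = 0.0359) and UNG higher (0.54, SE 0.15, adjusted p = 0.0141). These shares of 1 in 25 or 26 lay below the background. In IVP embryos none of the 4 lists had a gene that passed edgeR's quasi-likelihood test between the tissues (1, 0, 1 and 0 genes at an unadjusted p under 0.05, and 1, E2F1, by DESeq2).

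Other RNAs without a poly(A) tail were set beside the clustered histone genes. Of 1608 genes for small nuclear, nucleolar and related RNAs, 1512 never exceeded 3 counts in any library, nor did 12 of 16 ribosomal RNA genes, so the sums rest on few genes. The small RNAs summed to 8.48 to 17.4 CPM (IVP) and 8.38 to 19.2 CPM (IVV) in the ED and to 7.47 to 18.4 CPM (IVP) and 10.5 to 27.1 CPM (IVV) in the EEM. These ranges overlapped in both tissues. Ribosomal RNA genes summed to 735 to 3143 CPM (IVP) and 1615 to 4452 CPM (IVV) in the ED and to 749 to 4235 CPM (IVP) and 893 to 4276 CPM (IVV) in the EEM, and overlapped too. Their part in the histone differences was not tested.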

How the data were processed

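Poly(A)-selected, non-stranded RNA-seq was measured in 30 libraries of the ED and EEM of day 15 IVP and IVV bovine embryos. The deposited values were raw counts per Entrez gene, which the authors made by filtering with SOAPnuke, aligning with STAR (2.7.0b per the submitters' processing notes) to ARS-UCD1.3 and counting with featureCounts (Subread 2.0.3). The submitters' notes also name FastQC 0.11.9 and Trimmomatic. Whether reads that map to several places were counted is not given in the sources used here. Counts of 2 (19289 entries) outnumbered counts of 1 (15257), so a fit with halved counts was tried. Intervals and floors cover counting error only.

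Gene IDs were matched to symbols in a RefSeq table (assembly ARS-UCD2.0), which named 31630 of 35092 IDs with 99.5% of counts. Its order of genes within a chromosome was used to find neighbours, and its coordinates were put to no other use. The histone genes and all lists were chosen with earlier results of these data known. CPM used TMM library sizes. Each tissue was fitted with edgeR 4.0.16 in R 4.3.3 (filterByExpr with at least 10 counts, quasi-likelihood test, Benjamini-Hochberg over all tested genes, 0.05) with 1 surrogate variable from svaseq (sva 3.50.0). Tissues were compared in the 26 libraries of 13 embryos with embryo as a block, since titles name the embryo. Genes were named as the 3 with the highest mean CPM in each class, the 2 with the smallest p per comparison and direction, and every variant; others are said to be chosen after their values were seen. Alternatives were size factors, filters, 0 or 2 surrogate variables, DESeq2 1.42.0, the letter in the sample titles, XIST, halved counts and leaving out libraries. Scripts were tested on simulated data. The embryos of each procedure came from 2 cows, and the labels do not say which embryo came from which cow. The p-values therefore measure the spread between these embryos, which are not independent replicates of the procedure. No sequence is shown. One gene named by these rules is not reported here.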

Additional observations from a re-analysis of the deposited data

Results flagged for a closer look

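Single libraries stood apart from their group, by the gap to the nearest library over the range of the group, in 9 of 136 sets of values, and chance flags about 1 in 20 such groups. In the ED, H2AC13 was lowest in the IVV embryo VE19 (0.242 CPM), H3-3B in the IVV embryo VE24 (423 CPM), the summed H2A level in the IVP embryo IVPF15 (0.605 CPM) and the summed H3 level in the IVP embryo IVP14 (0.112 CPM). In the EEM of IVV embryos, H3C12 was lowest in VE3 (0.0358 CPM), H3-3B in VE29 (535 CPM) and H2AZ1 in VE26 (182 CPM). In the EEM of IVP embryos, H4C13 was lowest in IVP11 (3.69 CPM) and H2AX in IVPF14 (40.1 CPM). All 9 were low values and no single embryo stood apart in more than 1 set.

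The interaction of tissue and procedure was called for H4C16, with a fitted term of 7.43 on the log2 scale. With 0 to 7 counts in 3 of the 4 groups and a filter passed only through the IVV libraries of the EEM, this term is no measured size and is no support for a difference, and the call was lost on leaving out any of 7 embryos.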

How the results depend on the processing

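The count of histone genes lower in IVP ran from 7 (XIST as a covariate) to 15 in the ED and from 12 to 20 in the EEM over the planned settings other than leaving out libraries, beside 13 and 17. With libraries at or under 10 CPM of XIST only, added after seeing the data, it was 2 and 6. Shares of all genes called under these settings are not given here. Leaving out a library gave 11 to 14 in the ED and 16 to 21 in the EEM, and 10 of 13 and 15 of 17 calls were kept in every such fit. Over all planned settings together only 4 of 13 and 10 of 17 calls were kept. In the ED, 1 gene was higher in IVP with no filter or with the filter of the histone rule (H3C1) and 0 to 1 on leaving out a library (H1-7 without IVPF15). In the EEM, 2 genes were higher under those filters (H1-7 and H3C1) and 1 with DESeq2 (H3-5). Between tissues of IVV embryos, the fits with no replicate block gave 1 lower and 1 higher gene with either 26 or 30 libraries, beside 2 and 2 with it, and DESeq2 gave 4 lower. Leaving out an embryo gave 2 to 4 lower (4 without IVPF14) and 1 to 2 higher, and 0 to 1 for the interaction. The embryo block changed no call between tissues of IVP embryos. Summed levels moved by less than their standard deviation within groups, except H2B in the ED without its most abundant gene (log2 ratio -1.91). This measure is wide for H3 in the EEM, where the sums had means of 0.900 CPM (IVP) and 1.83 CPM (IVV). Of these, H3C5P held 0.142 CPM (IVP) and 1.06 CPM (IVV), so that difference lay mostly in 1 gene. The causes were not tested. Adding histone genes with a LOC symbol was not run, as the gene table has no descriptions.

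Sign changes concerned differences between IVP and IVV that had not passed edgeR's test in that tissue. In the ED, with 2 surrogate variables the log2 fold change became 0.17 for H1-10, 0.0541 for H2AX and 0.0871 for H3-5, with title letter C only 0.27 for H1-10, 0.0707 for H4C4, 0.15 for H2AX and 0.16 for H3-5, with XIST as a covariate -0.0763 for H2AZ1, and with low-XIST libraries only 0.0782 for H3C12. In the EEM, it became -0.25 for H2AC14 and -0.0852 for H3-3A with 2 surrogate variables, and for H3-3A -0.14 with none, -0.000837 with the title letter and -0.0798 with letter C only. With XIST as a covariate it was -0.51 for H2AC14, -0.24 for H3-3B, -0.30 for H3-3A, 0.000164 for MACROH2A2, -0.28 for H2AZ2 and -0.044 for MACROH2A1. With low-XIST libraries only it was -0.0698 for H2AC14, 0.0577 for H4C4, 0.0333 for H2AZ1, 0.12 for H2AJ and -0.26 for MACROH2A1. On leaving out a library, values crossed 0 in the ED for H1-10 (-0.48 to 0.143), H2AX (-0.511 to 0.0112), H2AZ1 (-0.13 to 0.232), H3-3B (-0.0978 to 0.244), H3-5 (-0.404 to 0.125), H4C4 (-0.514 to 0.00542) and MACROH2A1 (-0.0468 to 0.18). In the EEM they did so for H1-10 (-0.0292 to 0.389), H2AC14 (-0.149 to 0.712), H2AJ (-0.154 to 0.0369), H2AZ1 (-0.207 to 0.0913), H3-3A (-0.082 to 0.129), H3-3B (-0.0727 to 0.28) and MACROH2A1 (-0.0863 to 0.177).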

Other observations

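Within the 8 IVV embryos with both tissues, log2 CPM of the 3 most abundant H2B genes in the ED was set against that in the EEM of the same embryo. For H2BC5, Pearson's r was 0.86 (exact permutation p = 0.0108) and Spearman's rho 0.76 (exact permutation p = 0.0368), and r was 0.83 without the 2 embryos farthest from the median. For H2BC4, r was 0.76 (exact permutation p = 0.0287) and rho 0.81 (exact permutation p = 0.0218), and r fell to 0.51 without such embryos, so it rests partly on them. For H2BC21, r was 0.68 (exact permutation p = 0.0706) and rho 0.29 (exact permutation p = 0.501). Benjamini-Hochberg adjustment over the 6 relations gave at least 0.0551, so none passed 0.05.

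H1-8, the linker histone of oocytes, was below the rule for histone genes, with at most 10 counts in any library.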
